A study of Sus scrofa with 32 samples.

Results

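Among the 25322 genes counted in pig muscle, 15 were read clearly in some libraries and hardly at all in others. The genes were selected on their levels, given in CPM, which is the count of a gene per 1000000 counts of its library. A gene was taken when it had at least 5 CPM in 8 or more of 32 libraries and at most 0.1 CPM in 8 or more. In the following, a gene is called on in a library at 5 CPM or more, off at 0.1 CPM or less, and between otherwise. Of the 25322 genes, 7373 met the first condition and 13002 the second. They met in 16 genes, of which 1, ENSSSCG00000023287, was left out by the rule together with 4 other rows that did not meet both. These levels chose the genes, so that the wide range of each gene is a description and carries no test. What the choice did not use are the breed, the muscle and the number of the pig, and whether the levels follow any of these was tested.

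The libraries came from 16 unrelated gilts, 8 Pulawska (PUL) and 8 Polish Landrace (PL), aged 180 day by the sample labels. They were raised at a single test station, fed ad libitum up to a set body weight and starved for a day before slaughter. The paper lists age at slaughter as a trait and gives a higher daily gain in PL. Age may thus have differed between the breeds, and its part was not tested. PUL is a native Polish breed and PL a white commercial one, and no treatment or transgene was involved. Each gilt gave total RNA, depleted of ribosomal RNA, from the longissimus dorsi (LD) of the loin and the semimembranosus (S) of the ham, which makes 8 libraries in each of 4 groups. The sample descriptions carry a number that recurs in LD and S, and it is taken here as the pig: 1, 2, 3, 4, 5, 13, 16 and 17 in PUL and 7, 8, 9, 10, 12, 14, 15 and 18 in PL.

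Only 3 of the 15 genes had a symbol, against 72.1% of the 7373 genes at 5 CPM or more in 8 libraries. PPP1R1A encodes inhibitor-1, which blocks protein phosphatase 1 once protein kinase A has phosphorylated it. SMARCC2 encodes a scaffold subunit of the SWI/SNF chromatin remodelling complexes. TF encodes transferrin, the iron carrier of blood plasma, which is made chiefly by the liver. The other 12 genes are known here by their Ensembl identifiers alone, and no role is given for them. The program that made the counts, RSEM, divides a read that matches several gene entries among them in fractions, so an entry can receive a count that is not a whole number.

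The counts summed to between 8821273 and 24761853 per library, so that 3 counts, the limit that a count of 0 allows, correspond to 0.121 to 0.34 CPM. A gene listed at 0 may therefore have been present below these levels, and the limit covers counting error only. In bulk tissue, fewer cells of a type and less RNA per cell cannot be told apart. Of 10 skeletal muscle markers only ACTA1 and DES had an identifier, and their sum of 53153 to 114565 CPM was high in all 32 libraries. Over all expressed genes, with the group means removed, each library was compared with the 16 libraries of the other muscle. Among these, the library of the same number was the best match for 9 of 32 libraries. The correlation between LD and S of the same pig had a median of 0.16 and ran from -0.53 in PL pig 14 to 0.78 in PUL pig 3. LD and S of pig 14 were thus the least alike. The calls for the pig number and the opposite states of LD and S are therefore given with and without that pig.

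Across the set, 1 to 10 of the 15 genes were on in a library. All 15 were on in at least 1 library of each muscle, and 85 of the 240 combinations of gene and library were on in LD against 81 of 240 in S. By breed, 102 of 240 were on in PUL and 64 of 240 in PL. For 10 genes libraries of both breeds were on, for 4 genes only PUL libraries (ENSSSCG00000006114, TF, ENSSSCG00000011945 and ENSSSCG00000024011) and for SMARCC2 only PL libraries. Among the genes nearest to the thresholds inside the set, ENSSSCG00000006114, ENSSSCG00000006510, TF and ENSSSCG00000024011 were on in 8 libraries, and SMARCC2, ENSSSCG00000008369, ENSSSCG00000010411 and ENSSSCG00000021148 were off in 8. Just outside lay 8 genes that missed by 1 library, among them HGFAC with 7 libraries on and 14 off, ENSSSCG00000028739 with 25 on and 7 off, and ENSSSCG00000010805 with 20 on and 7 off.

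**Figure D1:**
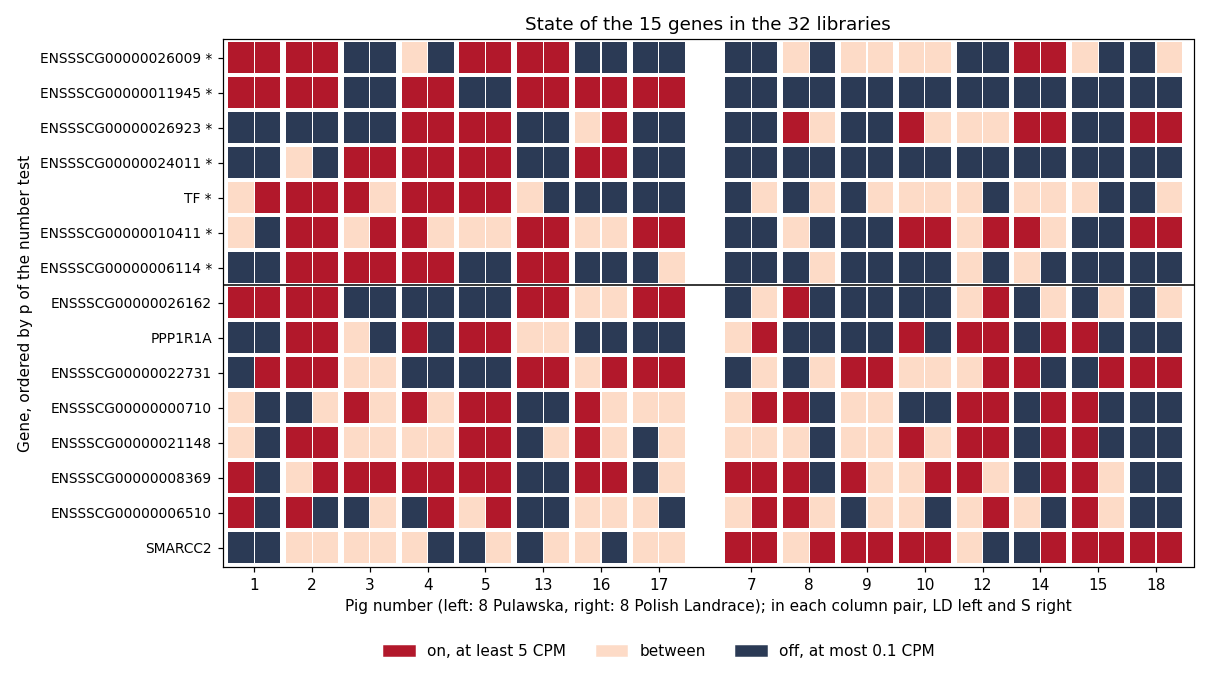
State of the 15 genes (vertical axis) in the 32 libraries (horizontal axis, pig number with the LD library left and the S library right, 8 Pulawska and 8 Polish Landrace pigs). Red is at least 5 CPM, dark blue at most 0.1 CPM and pale between, and an asterisk marks the 7 genes called in the test of the pig number. Above the line, no pig has red beside dark blue, and in ENSSSCG00000011945 red fills both muscles of 6 Pulawska pigs and neither muscle of the other pigs.

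For 7 of the 15 genes, the level followed the pig number. These 7 genes passed the test of the pig number within breed (edgeR's quasi-likelihood test, adjusted p at or under 0.05 over all genes), whereas 2.65% of all 11563 genes tested were called, 306 genes in all. All 15 genes passed the filter on low counts in this test, and 9 had an unadjusted p under 0.05, against 22% of all genes. The set was selected for a wide spread between libraries and the other genes were not, so these shares stand side by side without a test of their difference. The test compares the spread between pigs of a breed with the spread between the 2 muscles of a pig. Both muscles of a pig share its slaughter, so that a trait of the pig and its handling cannot be told apart here. The same 7 genes were those in which no pig was on in one muscle and off in the other, and without pig 14 SMARCC2 also had none. A pig with a muscle between on and off could not count as opposite. Among the 7 genes such pigs numbered from 0 of 16 for ENSSSCG00000011945 to 11 of 16 for TF. With the counts of each gene and the entry that shares its reads added up, only 2 of the 7, TF and ENSSSCG00000026009, were called. For TF no such entry was found, so that its counts stayed the same, and that of ENSSSCG00000026009 held 6 CPM or less.

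The cleanest pattern was that of ENSSSCG00000011945. It was on in LD and S of PUL pigs 1, 2, 4, 13, 16 and 17 and off in both muscles of the other 10 pigs, so that all 16 pigs had the same state in LD and S. In PUL, the level in LD was 0 at the lowest, 39.5 CPM at the median and 71.3 CPM at the highest, and in S it was 0, 34.5 and 105 CPM. The 12 libraries that were on held 25.5 to 105 CPM, and PUL pigs 3 and 5 were listed at 0 in both muscles. In PL, no library exceeded 0.0851 CPM, or 1.24 counts. The test of the pig number ranked this gene at 11 of 11563 (adjusted p = 5.71e-04). Had the LD and S libraries of different pigs of a breed been set side by side, 24 of 112 pairs, 21.4%, would have been in opposite states.

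ENSSSCG00000024011 was on in LD and S of 4 PUL pigs, numbers 3, 4, 5 and 16, where it held between 11.4 and 18.2 CPM. Of the other 24 libraries 23 were listed at 0, all 16 of PL among them, and LD of pig 2 held 0.293 CPM. The pigs on for this gene overlap in part with those on for ENSSSCG00000011945, since pigs 4 and 16 were on for both and pigs 3 and 5 were off for the latter. The adjusted p of the pig number was 0.00546 for this gene. ENSSSCG00000006114 was likewise on in both muscles of 4 PUL pigs, here numbers 2, 3, 4 and 13, with 11.6 to 20.5 CPM. Its highest level in PL was 2.26 CPM in S of pig 8, while LD of that pig was listed at 0, and its adjusted p was 0.0251.

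ENSSSCG00000026009 was on in pigs of both breeds. In PUL, LD held 0, 10.5 and 123 CPM at the lowest, median and highest and S held 0.0609, 20.3 and 202 CPM. Pigs 1, 2, 5 and 13 were on in both muscles, and no other PUL library exceeded 0.215 CPM. In PL, only pig 14 was on, with 45.7 CPM in LD and 12.5 CPM in S, and the next PL library was S of pig 18 with 1.14 CPM. Within pig 1, the level was 22.1 CPM in LD and 202 CPM in S, in pig 5 it was 54.6 and 59.6 CPM, and in pig 13 it was 123 and 172 CPM. It ranked at 2 of 11563 genes in the test of the pig number (adjusted p = 9.76e-06), and at an adjusted p of 7.53e-05 without pig 14.

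ENSSSCG00000026923 was on in both muscles of PUL pigs 4 and 5 and PL pigs 14 and 18. The levels in LD were 0, 0 and 18.2 CPM in PUL and 0, 3.59 and 19.4 CPM in PL, and the breeds overlapped throughout. In S they were 0, 0.036 and 8.65 CPM in PUL and 0, 2.58 and 11.5 CPM in PL. Its adjusted p was 0.00278 and 0.00304 without pig 14. Among LD and S libraries of different pigs of a breed, 38.4% of the pairs were in opposite states, against 0 of 16 pairs of the same pig.

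TF, the transferrin gene, was high in both muscles of the same 5 PUL pigs. In LD of PUL it had 0, 6.32 and 25.7 CPM at the lowest, median and highest, and in S 0, 4.4 and 167 CPM. Pigs 1 to 5 held 2.39 CPM or more in each muscle, whereas pigs 13, 16 and 17 held at most 0.202 CPM. In PL the highest value was 0.755 CPM, in LD of pig 14. The adjusted p of the pig number was 0.00709. ENSSSCG00000010411, the remaining one of the 7 (adjusted p = 0.0227), was on in both muscles of PUL pigs 2, 13 and 17 and PL pigs 10 and 18. It graded more than it switched, since 8 pigs had at least 1 muscle between on and off. In PUL it held 0.282, 4.86 and 16.8 CPM in LD and 0, 4.99 and 7.53 CPM in S, and PL pigs 7, 9 and 15 were listed at 0 in both muscles.

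**Figure D2:**
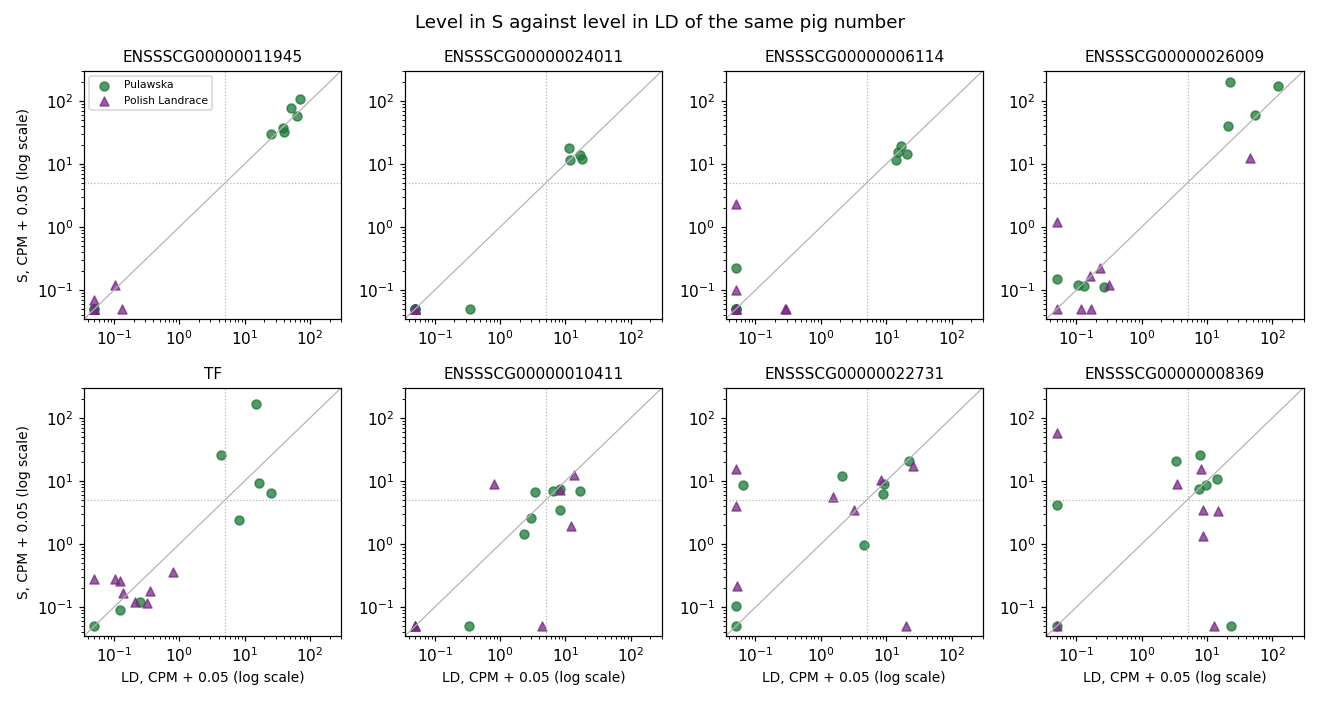
Level in S (vertical axis, CPM + 0.05 on a log scale) against the level in LD of the same pig number (horizontal axis, same scale) for 8 of the 15 genes, with 16 pigs in each panel, Pulawska as circles and Polish Landrace as triangles, dotted lines at 5 CPM and a line of equal levels. In ENSSSCG00000011945 and ENSSSCG00000024011 the pigs form a low and a high cluster along the line of equal levels, while in ENSSSCG00000022731 and ENSSSCG00000008369 pigs also lie along either axis, on in one muscle and off in the other.

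The calls varied with the pigs that entered the fit. With each pig left out in turn, 5 to 9 of the 15 genes were called, and 5 of the 7 (ENSSSCG00000010411, TF, ENSSSCG00000011945, ENSSSCG00000026009 and ENSSSCG00000026923) were called every time. ENSSSCG00000006114 was lost without pig 3, 13, 16 or 17 (adjusted p = 0.0526, 0.0624, 0.0513 and 0.0569). ENSSSCG00000024011 was lost without pig 3, 4, 5 or 16, because it then no longer passed the filter on low counts. Without pig 14, 9 genes of the set were called, PPP1R1A (adjusted p = 0.0434) and ENSSSCG00000026162 (0.0382) being the added ones, and the count over all genes went from 306 to 816. Without the filter on low counts, where 1.67% of all genes were called, 8 genes of the set were called, the 7 and ENSSSCG00000026162 (0.0297). With limma voom, which called 2.46% of all genes, 5 of the 7 were called, with ENSSSCG00000010411 at an adjusted p of 0.0562 and TF at 0.0689. DESeq2 called 6 of the 7 and ENSSSCG00000026162 (0.035), but it called 23.7% of all genes, and ENSSSCG00000006114 was not among its calls (0.749).

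The other 8 genes had at least 1 pig that was on in one muscle and off in the other. They were not called, with adjusted p from 0.0706 for ENSSSCG00000026162 to 0.814 for SMARCC2. ENSSSCG00000026162 came nearest to the 7 called genes. Its levels in PUL pigs 1, 2, 13 and 17 were 10.4 to 22 CPM in LD and 8.59 to 17.6 CPM in S, and PUL pigs 3, 4 and 5 were listed at 0 in both muscles. Its only opposite pair was PL pig 8, with 9.91 CPM in LD and 0 in S, and without that pig it was called (adjusted p = 0.00326).

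PPP1R1A was the gene with the most opposite pairs, 4 of 16 pigs (25%), against 39.3% of the 112 pairs of different pigs. Its level in LD ran from 0 to 104 CPM in PUL and from 0 to 128 CPM in PL, with medians of 1.07 and 1.12 CPM. In S it ran from 0 to 39.7 CPM and from 0 to 49.4 CPM, and both medians were 0. PUL pigs 2 and 5 and PL pig 12 were on in both muscles. In PL pig 14 it was listed at 0 in LD and at 49.4 CPM in S, and in PL pig 15 at 60.4 CPM in LD and at 0 in S.

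Opposite pairs were concentrated in few pigs. Of the 240 combinations of gene and pig, 20 were opposite, and they fell in 7 of the 16 pigs, with 6 in pig 14, 4 in pig 15 and 3 each in pigs 1 and 8. Without pig 14, 14 of 225 combinations were opposite. In 4 genes, PPP1R1A, ENSSSCG00000000710, ENSSSCG00000021148 and ENSSSCG00000022731, both pig 14 and pig 15 were opposite, and in all 4 LD of one had the state that S of the other had. ENSSSCG00000000710, for instance, was listed at 0 in LD of pig 14 and S of pig 15 and held 15 CPM in S of pig 14 and 12.3 CPM in LD of pig 15. ENSSSCG00000022731 had the reverse, with 19.9 CPM in LD of pig 14 and 15.7 CPM in S of pig 15 against 0 in the other 2 libraries. The called genes could not show this, since none of them had an opposite pair. ENSSSCG00000026923 was on in both libraries of pig 14 (11.6 and 7.44 CPM) and listed at 0 in both libraries of pig 15.

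Least tied to the pig by the share of opposite pairs was ENSSSCG00000006510, with 18.75% of the same pigs and 18.75% of different pigs in opposite states. No pig was on for it in both muscles. It held 13 and 14.6 CPM in LD of PUL pigs 1 and 2 and 0 in their S, and 0 in LD and 7.23 CPM in S of PUL pig 4. ENSSSCG00000008369 was on in 18 libraries and ENSSSCG00000021148 in 10, with adjusted p of 0.524 and 0.483 for the pig number. In ENSSSCG00000008369 the level ranged from 0 to 23.3, 14.9, 26.2 and 56.8 CPM in LD of PUL, LD of PL, S of PUL and S of PL, so that all 4 groups overlapped. ENSSSCG00000021148 reached at most 8.47 CPM, in LD of PL pig 12, and its 4 groups overlapped as well.

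**Figure D3:**
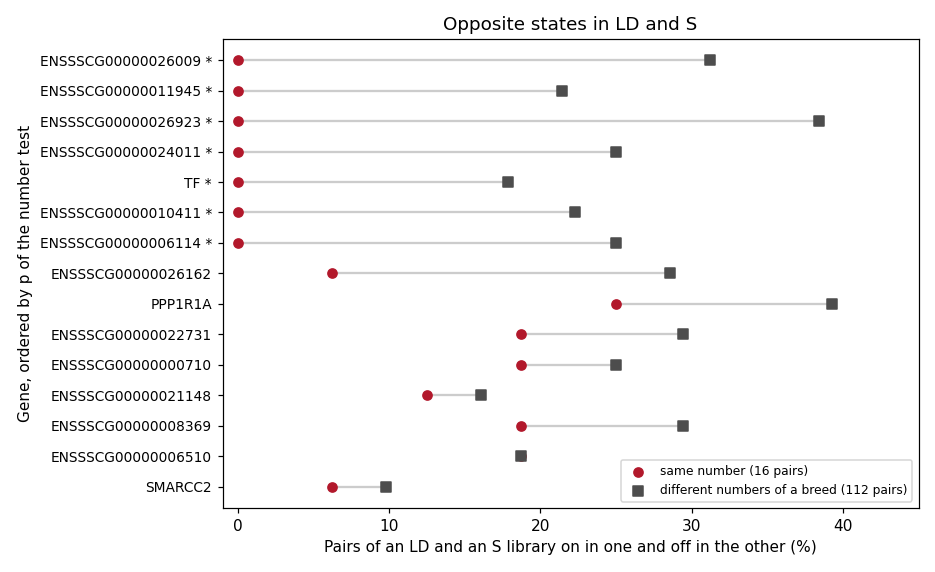
Share of pairs of an LD and an S library that are on in one and off in the other (horizontal axis, percent) for each of the 15 genes (vertical axis, an asterisk marking the 7 called for the pig number), with the 16 pairs of the same pig as circles and the 112 pairs of different pigs of a breed as squares. The 7 called genes have circles at 0 and squares between 17.9% and 38.4%, and in ENSSSCG00000006510 both symbols fall at 18.75%.

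Between the breeds, no gene of the set was called in either muscle. In LD, 9 of the 15 genes passed the filter on low counts, and edgeR's quasi-likelihood test called 0 of them and 0% of all 10792 genes (adjusted p at or under 0.05 and a fold change of at least 1.3), with 1 of the 9 at an unadjusted p under 0.05. In S, 8 genes passed, and 0 of them and 0% of 10687 genes were called, again with 1 at an unadjusted p under 0.05. DESeq2 and limma voom also called 0 of these genes, with 1 at p under 0.05 in each muscle, while DESeq2 called 0.167% of all genes in LD and 0.945% in S. The standard errors of the log2 differences of these genes were 0.85 or more.

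SMARCC2, the chromatin remodelling subunit, was the gene behind each of these counts. No PUL library was on, whereas 5 of 8 PL libraries in LD and 7 of 8 in S were. In LD its level was 0, 0.803 and 2.71 CPM in PUL at the lowest, median and highest and 0, 7.15 and 19.2 CPM in PL. In S it was 0, 1.26 and 3.56 CPM in PUL and 0, 11.4 and 19.1 CPM in PL. The ranges overlapped, since LD of PL pigs 8 and 14 and S of PL pig 12 lay at 1.11, 0 and 0 CPM. The log2 difference of PL from PUL was 3.54 (SE 0.94) in LD and 3.0 (SE 0.85) in S, with unadjusted p of 0.00143 and 0.00244 and adjusted p of 0.481 and 0.219. Over the alternatives that kept the gene on its own, the adjusted p ran from 0.168 to 0.762 for LD and from 0.138 to 0.437 for S. With the counts of the entry that shares its reads added, the direction turned, to a log2 difference of -0.34 in LD and -0.27 in S (edgeR, adjusted p = 0.711 and 0.461). Its adjusted p for the pig number within breed was 0.814, and the breed difference did not differ between the muscles by a called amount (interaction, log2 -0.55, SE 1.27, adjusted p = 0.9996).

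The 4 genes that were on only in PUL did not pass the filter on low counts within a muscle, because too few libraries held them, and so had no test in LD or S. In a fit without that filter, 1 of 15 genes was called in each muscle, ENSSSCG00000011945 (adjusted p = 0.00255 for LD, 0.00296 for S), where 0.021% and 0.0206% of all genes were called. It was on in 6 of 8 PUL and 0 of 8 PL pigs. Summed with ATP5MC1, the entry that shares its reads, it was not called, with a log2 difference of 0.08 (SE 0.21, edgeR, adjusted p = 0.986) in LD and -0.23 (SE 0.14, edgeR, adjusted p = 0.496) in S. The fitted log2 difference, -10.39 in LD and -11.44 in S, depends on the small count that the fit adds to the PL libraries and is no bound. In the same fits TF had adjusted p of 0.0601 and 0.0561, ENSSSCG00000006114 0.0822 and 0.133, and ENSSSCG00000024011 0.129 and 0.0965. ENSSSCG00000026009, on in 4 PUL pigs and 1 PL pig, had 0.695 and 0.194.

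Between the muscles, no gene of the set was called either. All 15 passed the filter over the 32 libraries, and edgeR's quasi-likelihood test called 0 of them against 0.138% of all 11563 genes (0.0692% higher in S and 0.0692% higher in LD), with 0 of the 15 at an unadjusted p under 0.05 and adjusted p of 0.984 or more. With the pig as a block, with DESeq2, which called 0.173% of all genes, and with limma voom, 0 were called and 0 had an unadjusted p under 0.05. The log2 differences of S from LD ran from -1.28 (SE 1.14) for PPP1R1A to 1.14 (SE 0.85) for TF. For 8 of the 15 genes as many libraries were on in LD as in S, for 5 more in LD and for 2, SMARCC2 and ENSSSCG00000022731, more in S. The interaction of breed and muscle called 0 of the 15 and 0% of 11563 genes, with 0 and 224 at an unadjusted p under 0.05. By DESeq2 and limma voom, 0 of the 15 were called or had such a p.

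What 13 of the 15 genes shared, and the choice did not use, was that their counts were fractions. In 13 genes the count differed from a whole number by more than 0.005 in at least 90% of the libraries above 0, against 23% of the 7373 expressed genes. TF alone had whole counts throughout, like 63.2% of expressed genes, and ENSSSCG00000026009 had fractions in 11 of 26 libraries. Since a divided read leaves fractions in each of the entries that share it, each gene with fractions in at least 8 libraries was compared with all other rows. For 11 of 14 genes (78.6%) there was exactly 1 other entry whose count added to theirs gave a whole number, within 0.015, in every such library. Among the expressed genes with fractions in at least 8 libraries, 793 of 2252 (35.2%) had exactly 1 such entry and none had more. The match had to hold in every library with fractions, so genes with more such libraries met a stricter condition. These shares are therefore not strictly alike. An entry that matches in this way is called the partner here. For ENSSSCG00000006510, ENSSSCG00000008369 and ENSSSCG00000021148 no partner was found.

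Nearly all partners were read in every library, with the exception of that of ENSSSCG00000026009. PPP1R1A shared its fractions with ENSSSCG00000022748, which held 339 to 1173 CPM, and ENSSSCG00000011945 with ATP5MC1, a gene for subunit c of mitochondrial ATP synthase, which held 276 to 802 CPM. Further partners with a symbol were CD9, a tetraspanin of the cell surface, for ENSSSCG00000000710, RASSF4 for ENSSSCG00000010411, PDRG1 for ENSSSCG00000022731 and PPIF, the mitochondrial cyclophilin, for ENSSSCG00000026162. ENSSSCG00000006114 was paired with ENSSSCG00000006581 and ENSSSCG00000026923 with ENSSSCG00000029058. Of the 11 partners, 7 were on in all 32 libraries and 10 were off in none.

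In most pairs the log levels of gene and partner ran against each other, with a correlation from -0.19 for PPP1R1A to -0.85 for SMARCC2. The exceptions were the pairs of ENSSSCG00000011945 and ENSSSCG00000026009. The sum varied less than either entry in every pair but that of ENSSSCG00000026009, though by little where the partner was abundant. For SMARCC2 and its partner ENSSSCG00000022002, the coefficient of variation over the 32 libraries was 118% for SMARCC2, 61% for the partner and 24.6% for the sum. SMARCC2 took 0, 2.8 and 14.8% of the summed counts in LD of PUL at the lowest, median and highest and 0, 48.3 and 89.8% in LD of PL. In S it took 0, 6.26 and 19.9% in PUL and 0, 64.2 and 90.8% in PL. The summed level was 25.7 ± 5.4 CPM (SD, n = 8) in LD of PUL, 17.7 ± 3.4 in LD of PL, 21.8 ± 4.4 in S of PUL and 18.6 ± 3.4 in S of PL, so that the breeds overlapped in the sum. The fit on the summed counts, in which the log2 difference of PL from PUL turned below 0, was an alternative chosen after the data were seen.

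ENSSSCG00000024011 and ENSSSCG00000003638 made a similar pair. The coefficient of variation was 180% for the gene, 42.2% for the partner and 27.2% for the sum, and in the 8 libraries that were on the gene held between 47.6 and 57.8% of the sum. The partner held 8.41 CPM in LD of pig 3 and 55.6 CPM in LD of pig 2, the library with the highest value. For ENSSSCG00000022731 and PDRG1 the coefficients were 111%, 42.3% and 30.9%, and the largest share of the gene was 57.9%. ENSSSCG00000011945 differed from these, since it took at most 14.6% of the sum with ATP5MC1 and its log level did not run against that of the partner (Pearson's r = 0.003 over 32 libraries). ENSSSCG00000026009 and its partner ENSSSCG00000025680 were high in the same libraries (r = 0.95), with the partner at 6 CPM or less.

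**Figure D4:**
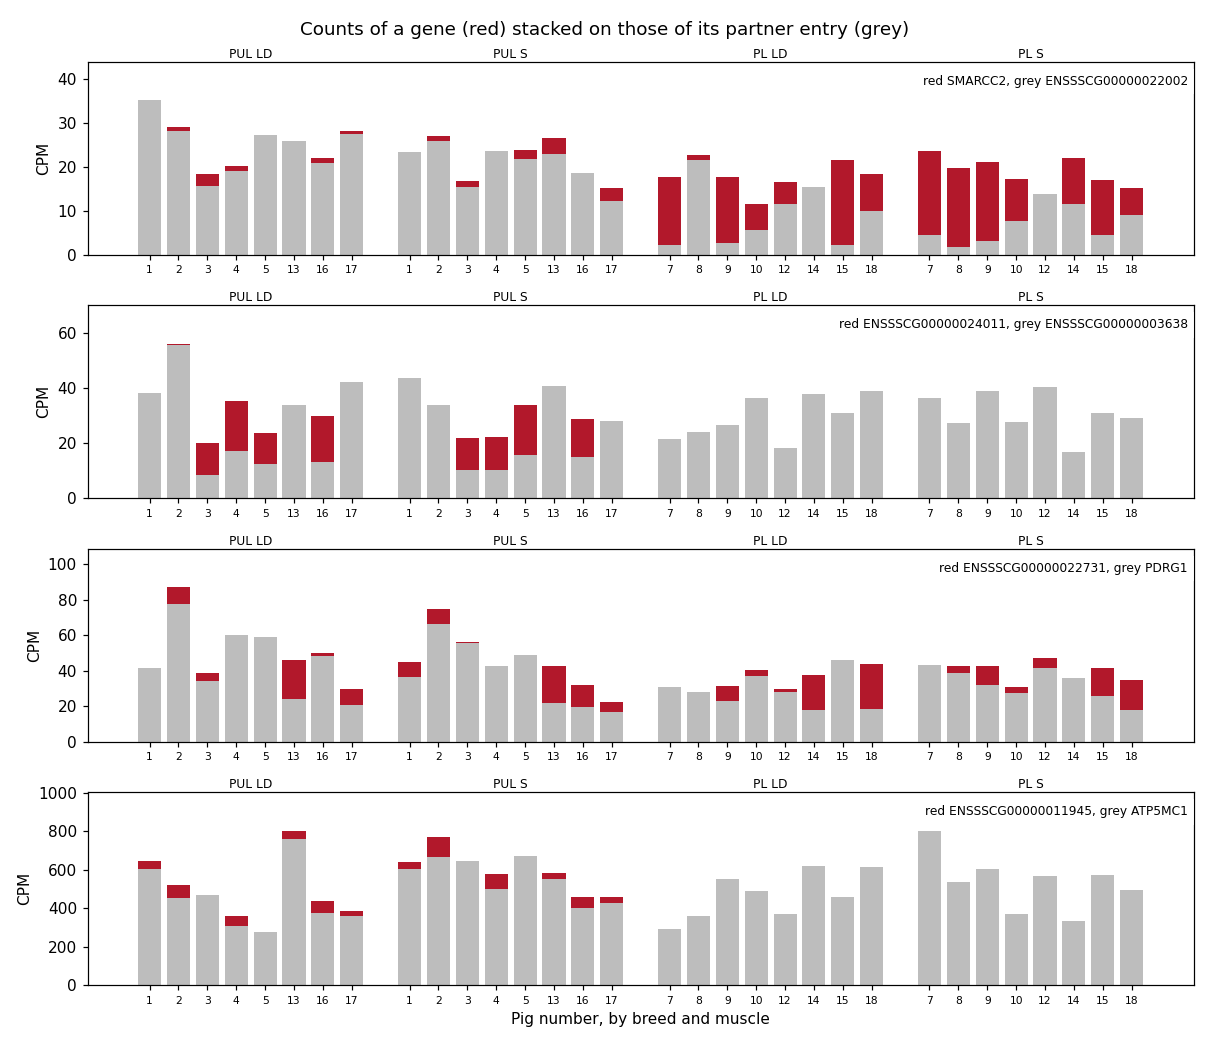
Level of a gene (red) stacked on that of its partner (grey) in each library (horizontal axis, pig number within the 4 groups of breed and muscle; vertical axis, CPM), for 4 pairs. In the pairs of SMARCC2, ENSSSCG00000024011 and ENSSSCG00000022731 grey is low where red is high, with SMARCC2 at up to 90.8% of a bar, while red is at most 14.6% of a bar for ENSSSCG00000011945.

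The pig number was called for fewer genes once partners were added. Of the 7 called genes, 6 have a partner, and with the counts of each pair summed, 2 of the 15 genes were called, TF and ENSSSCG00000026009, against 2.57% of all genes. TF has no partner and that of ENSSSCG00000026009 is low, so that summing could hardly change these 2 calls. The adjusted p of the sum was 0.127 for ENSSSCG00000006114, 0.195 for ENSSSCG00000010411, 0.662 for ENSSSCG00000011945, 0.65 for ENSSSCG00000024011 and 0.542 for ENSSSCG00000026923. The sum is dominated by the partner where the partner is abundant, as for ENSSSCG00000011945, so that it does not measure the gene alone. How the reads of a pair were divided could not be followed in the counts, and its part in the states was not tested. For all the genes with a partner, the level of the gene on its own is therefore uncertain.

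**Figure D5:**
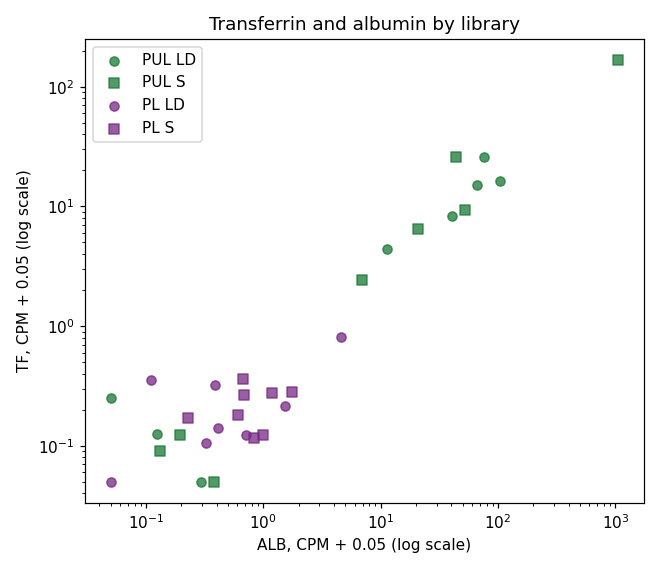
Level of TF (vertical axis, CPM + 0.05 on a log scale) against that of ALB (horizontal axis, same scale) in the 32 libraries, circles for LD and squares for S, green for Pulawska and purple for Polish Landrace. The 10 libraries of Pulawska pigs 1 to 5 lie in the upper right, with S of pig 5 at 167 CPM of TF and 1053 CPM of ALB, and the other 22 lie in the lower left.

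TF, free of shared fractions, had a level like that of ALB. Among all genes at 5 CPM or more in 8 libraries, this gene of serum albumin had the log2 level most like that of TF (r = 0.98 over 32 libraries, which share pigs and library depth). ALB had 0, 26 and 104 CPM in LD of PUL, 0.0808, 13.7 and 1053 CPM in S of PUL, 0, 0.35 and 4.53 CPM in LD of PL and 0.18, 0.712 and 1.69 CPM in S of PL. S of PUL pig 5 was the highest library in both genes, with 167 CPM of TF. The 7 hepatocyte markers that had an identifier summed to 8.16 to 174 CPM in LD of PUL, 6.05 to 18.9 in LD of PL, 19 to 1371 in S of PUL and 9.17 to 29.2 in S of PL. In the library with the highest sum, S of PUL pig 5, ALB made up 1053 of the 1371 CPM. FGG, a chain of fibrinogen, ranged over 0.347 to 20.1 CPM among PUL pigs 1 to 5 and reached 0.351 CPM elsewhere, while TTR, the gene of transthyretin, ranged over 0.422 to 68.9 CPM and reached 0.412 CPM. APOA1, the main apolipoprotein of high density lipoprotein, did not follow TF. It held 4.5 to 24.78 CPM in PUL pigs 1 to 5, 8.09 to 54.2 CPM in PUL pigs 13, 16 and 17 and 5.64 to 28.1 CPM in PL. APOA2, FGB and AHSG, the rest of the 7, are given only within the sum, so whether they follow TF is not shown. Only 2 of the 7 reached 5 CPM in 8 libraries, and TF was not on the list. Their part in the level of TF was not tested.

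Other members also had close companions by log2(CPM + 0.5) over the 32 libraries, given as a description. SMARCC2 was most like ENSSSCG00000023287 (r = 0.77) and most opposed to its partner ENSSSCG00000022002 (r = -0.85), and ENSSSCG00000024011 was most opposed to its partner ENSSSCG00000003638 (r = -0.81). ENSSSCG00000021148 was most like ARHGEF6 (r = 0.87), ENSSSCG00000008369 most like ENSSSCG00000010805 (r = 0.86), ENSSSCG00000000710 most like SRL, the gene of the calcium-binding sarcalumenin (r = 0.85), and ENSSSCG00000022731 most like CHCHD5 (r = 0.81). For the other genes the highest correlation was 0.61 to 0.77.

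Within the set, some of the genes with opposite pairs correlated with each other. ENSSSCG00000008369 correlated with ENSSSCG00000021148 (r = 0.76), with ENSSSCG00000000710 (r = 0.69) and inversely with ENSSSCG00000022731 (r = -0.71), and PPP1R1A correlated with ENSSSCG00000021148 (r = 0.73). The other 3, SMARCC2, ENSSSCG00000006510 and ENSSSCG00000026162, had correlations between -0.40 and 0.32 with each gene that had opposite pairs. ENSSSCG00000000710 (r = -0.62), ENSSSCG00000008369 (r = -0.57) and ENSSSCG00000022731 (r = 0.50) were also the members most correlated with the first principal component of all expressed genes, which held 29% of the variance over the libraries. Of the 7 genes called for the pig number, 6 had a correlation with it between -0.06 and 0.26, and ENSSSCG00000024011 had -0.35. The correlation with the log2 library total ran from -0.22 to 0.43 over the 15 genes. With the share of counts in the top 10 genes of a library, TF had r = -0.51 and ENSSSCG00000026009 r = -0.49. With the number of genes at 1 CPM or more, PPP1R1A had r = 0.53, ENSSSCG00000006510 r = 0.52 and ENSSSCG00000021148 r = 0.46. These correlations rest on 32 libraries that share 16 pigs, and they were not repeated without pig 14. The part of that component and of these library measures in the states was not tested.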

How the data were processed

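RNA was sequenced from LD and S of 16 gilts, and the 32 libraries were grouped by the breed and muscle of the sample labels. The authors trimmed adapters, poly-A and poor reads, then ran RSEM, with Bowtie 2 as its aligner, on single reads against Sscrofa10.2. Versions of these tools are not given in the sources used here. The authors deposited RSEM's expected counts per gene and isoform, not normalized, and columns of no sample numbered 0. Because RSEM estimates how reads of several origins are divided, the expected count of a gene with a near-identical copy depends on that division. No coordinates or sequences are given, as no genome of this assembly was used. Symbols were matched for 11804 of the 25322 gene IDs. With 30 or fewer genes in the set, all 15 are named. The genes, their rule and the marker lists were chosen with earlier results of these data known.

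After rounding to whole numbers, the expected counts were fitted in R 4.3.3 with edgeR 4.0.16 (quasi-likelihood test, TMM factors, filterByExpr, Benjamini-Hochberg adjustment over all genes tested). The study compared breeds within a muscle with edgeR, baySeq and DESeq2. It kept genes that more than a single method called and reported breed genes in both muscles, while the main fits here used edgeR alone. Most of the genes that the study listed for LD were also significant by its own edgeR analysis, whereas edgeR's quasi-likelihood test here called 0% of genes in LD. The source of that difference was not tested. Calls needed an adjusted p at or under 0.05 and, except for the pig number, a fold change of at least 1.3. Breeds were compared in 16 libraries per muscle. Muscle, the interaction and the pig number (14 coefficients that separate pigs of a breed) were tested over 32 libraries. Standard errors came from the F statistic. Alternatives were RLE factors, no filter, DESeq2 1.42.0, limma 3.58.1 (voom), robust dispersion, no fold change minimum, a replicate block, each pig left out and other thresholds. Summing a gene with its partner was added after the data were seen. Levels are CPM by library sum, and correlations use log2(CPM + 0.5).

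The pairing of LD and S rests on the description numbers and on a design in which each gilt gave both muscles, not on the expression data, where the correlation of the paired deviations was -0.53 at its lowest. The replicate numbers that a PUL and a PL library share in the titles pair no animals. On simulated counts with 200 changed genes, the test recovered 93.5% with 5 false calls over 10986 genes for the breed in LD, 96% with 12 over 11405 genes for the muscle and 99% with 6 over 11347 genes for the pig number.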

Additional observations from a re-analysis of the deposited data

Results flagged for a closer look

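Of 60 combinations of gene and group, each with 8 libraries, 14 held a highest library set apart by more than the 95% limit of Dixon's test. Chance alone exceeds that limit in about 1 in 20 groups of normally distributed values, which these CPM, with many at 0, are not. ENSSSCG00000024011 was at 0 in all PL libraries, so that its PL groups could not be flagged. The genes were chosen for wide spread, so the count of 14 is a description. In PPP1R1A they were LD of PL pig 12 with 127.8 CPM (the next library held 60.4) and S of PUL pig 2 with 39.7 CPM (next 13.05). In SMARCC2, LD of PUL pig 3 held 2.71 CPM (next 1.18). In ENSSSCG00000006114, S of PL pig 8 held 2.26 CPM (next 0.0518). In ENSSSCG00000008369, S of PL pig 14 held 56.8 CPM (next 15.6).

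In TF, S of PUL pig 5 held 167.1 CPM (next 25.7) and LD of PL pig 14 held 0.755 CPM (next 0.304). In ENSSSCG00000011945, S of PL pig 7 stood apart with 0.069 CPM, below the off threshold. In ENSSSCG00000022731, LD of PUL pig 13 held 21.9 CPM (next 9.28), and in ENSSSCG00000026923, LD of PUL pig 4 held 18.2 CPM (next 5.49). ENSSSCG00000026009 stood out in 3 groups, with 123.0 CPM in LD of PUL pig 13 (next 54.6), 45.7 CPM in LD of PL pig 14 (next 0.265) and 12.5 CPM in S of the same pig (next 1.14). In ENSSSCG00000026162, S of PL pig 12 held 11.9 CPM (next 3.86).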

How the results depend on the processing

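The number of genes in the set was 15, and it was 29 with an on threshold of 3 CPM, 9 with 10 CPM, 35 with 6 libraries on and 6 off, and 6 with 10 and 10. It was 13 and 17 with off thresholds of 0.05 and 0.5 CPM and 16, of which 14 were the same, with TMM-scaled libraries. Genes with no opposite pig numbered 7, or 6 with an on threshold of 3 CPM or an off threshold of 0.5 CPM, and 7 to 8 with a pig left out, 8 without pig 14 (SMARCC2 added) or pig 8 (ENSSSCG00000026162 added), chosen after the data were seen. Genes called for the breed numbered 0 in LD and 0 in S and 1 in each without the filter on low counts, ENSSSCG00000011945, which the filter leaves untested. With each pig left out in turn, 0 genes of the set were called for the breed in either muscle, for the muscle and for the interaction. The replicate block by title number (breed) or by pig (muscle, interaction) gave 0 calls in all 4 comparisons and changed no call.

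Genes called for the pig number were 7, 8 without the filter, 5 with voom and 2 with partners summed. In these sums the counts of a gene with a partner are by construction no longer its own, while TF, with no partner, is unchanged. With RLE factors or robust dispersion the same 7 were called, and without the fold change minimum no count of the other comparisons moved. With a pig left out they were 5 to 9. Over all genes, the calls went from 306 to 816 without pig 14 and to 198 without pig 13, and the cause was not tested. Depth limits what off means, since 3 counts exceed 0.1 CPM in every library, and a gene between 0.1 and 0.34 CPM may rest on a few counts.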
